A study of Mus musculus with 6 samples.

Results

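Complement transcripts were followed in nuclei of the degenerating mouse retina through 9 genes chosen by symbol, C1qa, C1qb, C1qc, C3, C4b, Cfi, C3ar1, Serping1 and Cd59a. All 9 were present among the 32285 genes counted, and their unique molecular identifiers (UMIs, each standing for 1 captured RNA molecule) were summed per library over cell types defined by marker genes. The retinas came from rd10 mice (B6.CXB1-Pde6b-rd10/J), which carry a mutation in Pde6b, a subunit of the rod phosphodiesterase, and lose their rods after birth and their cones later. Every mouse received a single intravitreal injection at post-natal day 18, and retinas were taken at post-natal day 20. The IL-27 group received 20 ng of recombinant IL-27 (n = 3 libraries, replicates 4, 5 and 10) and the control group received saline (n = 3 libraries, replicates 1, 2 and 6). Both groups therefore shared the rd10 mutation, the injection and the age, and neither uninjected rd10 nor wild type retinas were analysed here. The labels do not say how many animals made up a library, so p-values measure only the spread between these libraries, which may be technical.

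Complement is a cascade of blood and tissue proteins that tags cells, debris and synapses for removal. In its classical arm, C1q binds a surface and starts the cleavage of C4 and then of C3, the component on which all arms meet, and fragments of C3 both coat the target and call immune cells through receptors such as the C3a receptor. Inhibitors act at each step, among them C1 inhibitor at C1, factor I on the C3 and C4 fragments, and CD59 at the membrane pore. In the retina, microglia are known as a source of C1q, and complement has been studied for its part in the clearance of dying photoreceptors.

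The 6 libraries held 8968 to 9965 barcodes and 36678332 to 48260748 UMIs each. After filters on quality and removal of 4031 likely doublets, 52174 nuclei remained, with a median of 2782 to 3786 UMIs per nucleus in the different libraries. The lowest median, 2782, belonged to IL-27 replicate 10. Among 55837 distinct barcodes, 367 occurred in more than 1 library, and these were kept. The nuclei summed were 14321 rods, 10123 bipolar cells (BC), 9383 amacrine cells (AC), 5152 Muller glia, 3118 cones, 2099 retinal ganglion cells (RGC), 1443 microglia, 478 horizontal cells (HC), 278 astrocytes, 227 endothelial cells and 107 pericytes. All 11 microglia markers, 9 of 9 pericyte, rod, cone and BC markers, and 9 of 10 endothelial and RGC markers were highest in the type they name. The check was weaker for Muller glia, with 6 of 9 markers highest there, for astrocytes, with 4 of 6, for AC, with 7 of 9, and for HC, with 6 of 7. Expression is reported in CPM, which scales a gene's UMIs to the total UMIs of the same library and cell type, as mean ± SD.

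The genes of the C1q chains, C1qa, C1qb and C1qc, were highest in microglia and stood apart from every other cell type. In microglia C1qa was at 307 ± 45.2 CPM, C1qb at 305 ± 41.3 CPM and C1qc at 280.5 ± 40.3 CPM (SD, n = 6 libraries each). The lowest microglial library was above the highest library of the next type, which was rods for all of them. C1qa reached 32 ± 4.98 CPM in rods, 25.3 ± 18.4 CPM in endothelial cells and 15.7 ± 4.18 CPM in cones, and libraries of neighbouring types in this order overlapped. The lowest C1qa levels were in RGC, at 3.83 ± 0.36 CPM, and HC, at 2.02 ± 2.31 CPM (SD, n = 6 libraries each). These genes lie side by side on the minus strand of chromosome 4 (GRCm38, GENCODE M21), C1qb (ENSMUSG00000036905) at chr4:136880129-136886187, C1qc (ENSMUSG00000036896) at chr4:136889804-136893065 and C1qa (ENSMUSG00000036887) at chr4:136895917-136898803. C3ar1 (ENSMUSG00000040552; chr6:122847138-122856161, minus strand), which encodes the receptor for the C3 fragment C3a, had the same leading cell type. It was at 165 ± 35.2 CPM in microglia against 4.80 ± 3.60 CPM in rods, the next type. A C3ar1 UMI was found in 0 of the 227 endothelial nuclei summed, which allows a share of up to 1.32% of nuclei with a UMI, and all 251 retained endothelial nuclei, those of unusual depth included, held 4.

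Because these genes shared their leading cell type, the 250 bases before the RefSeq start (GRCm38.p6) of each microglial gene with an entry are shown, each read 5′ to 3′ on the minus strand. They span chr4:136886201-136886450 for C1qb, chr4:136892915-136893164 for C1qc and chr6:122856158-122856407 for C3ar1. Capitals mark matches to GAGGAA, the core bound by PU.1, the transcription factor of the microglial lineage, or to its reverse complement TTCCTC.
C1qb: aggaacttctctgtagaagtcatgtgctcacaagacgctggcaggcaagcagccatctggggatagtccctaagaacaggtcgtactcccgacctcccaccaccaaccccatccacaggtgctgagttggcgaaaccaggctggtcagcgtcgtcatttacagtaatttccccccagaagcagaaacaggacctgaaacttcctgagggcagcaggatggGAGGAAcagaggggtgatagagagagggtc
C1qc: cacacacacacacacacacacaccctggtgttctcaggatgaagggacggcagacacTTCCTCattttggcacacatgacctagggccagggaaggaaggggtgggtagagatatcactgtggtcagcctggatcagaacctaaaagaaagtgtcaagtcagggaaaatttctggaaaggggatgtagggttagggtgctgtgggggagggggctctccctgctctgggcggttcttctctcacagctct
C3ar1: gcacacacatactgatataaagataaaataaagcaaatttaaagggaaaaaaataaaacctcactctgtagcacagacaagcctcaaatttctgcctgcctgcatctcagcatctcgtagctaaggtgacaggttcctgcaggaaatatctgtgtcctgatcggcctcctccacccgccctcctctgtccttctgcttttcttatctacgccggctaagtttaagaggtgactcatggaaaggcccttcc
The C1qb match lies 30 to 25 bases before the RefSeq start and the C1qc match 193 to 188 bases before it, on the other strand. The C1qc gene of GENCODE M21 starts further upstream, so that 151 of the 250 bases shown lie inside it and the match lies 42 to 37 bases before its start. The GENCODE start of C1qb is downstream of the RefSeq start, which puts its match at 43 to 38 bases. C3ar1 had no match in this window. GAGGAA on either strand occurs in 23.3% of 32851 promoters of the same length, so a match is common. TTCNNNGAA, the dimer site of STAT factors, which act downstream of the IL-27 receptor, occurs in 7.02% of promoters and the interferon-stimulated response element in 2.98%. Neither was found before C1qb, C1qc or C3ar1. Of the other members with an entry, C3 had no match to any of the motifs, and Cd59a held GAGGAA at 62 to 57 bases and GAAAGGGAAA, an interferon-stimulated response element, at 187 to 178 bases before its start.

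**Figure D1:**
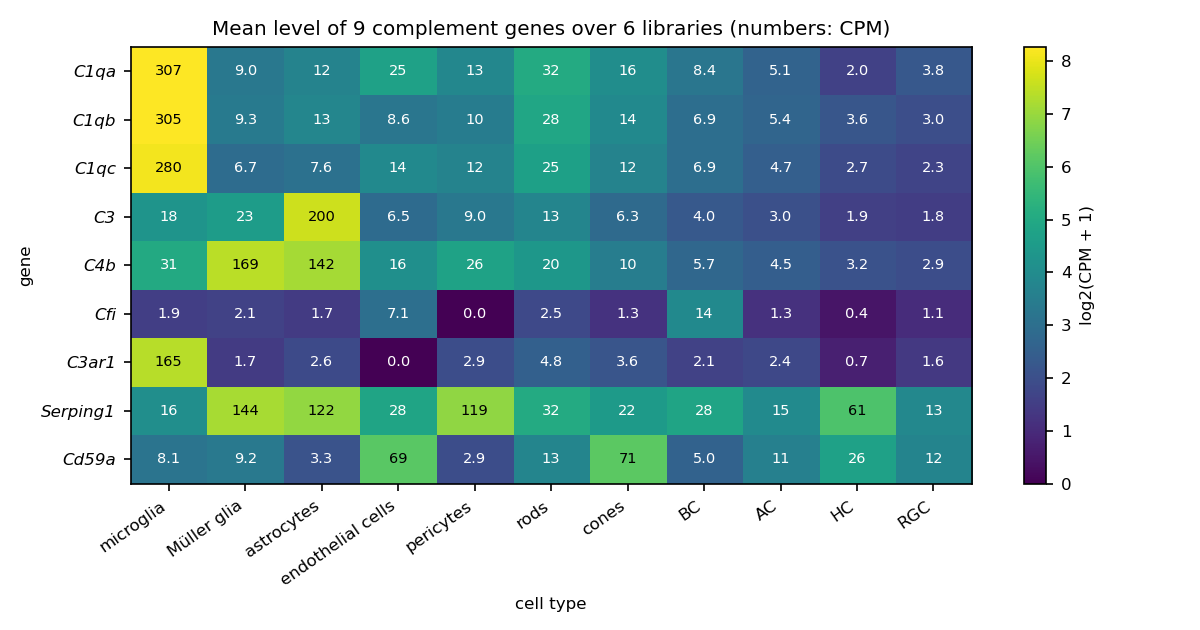
Mean level of each complement gene in each cell type, in CPM over 6 libraries (numbers in the cells), with color on a log2(CPM + 1) scale. C1qa, C1qb, C1qc and C3ar1 peak in microglia, C3 in astrocytes, C4b and Serping1 in Muller glia, Cfi in BC, and Cd59a in cones and endothelial cells.

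A C1q chain was read in a large part of microglial nuclei but in few nuclei of any other type. At least 1 UMI was found in 39.6% of microglial nuclei for C1qa (95% exact Clopper-Pearson interval 37.0 to 42.1%), 42.1% for C1qb (39.6 to 44.7%), 36.6% for C1qc (34.1 to 39.1%) and 27.4% for C3ar1 (25.1 to 29.8%). These intervals cover counting error only. In rods, which are not known to make C1q, C1qa had a UMI in 3.80% of nuclei (3.49 to 4.12%), at a median depth of 1250 UMIs against 2089 in microglia. With every nucleus thinned to 1000 UMIs, which left out 3792 rods and 44 microglia below that depth, the C1qa shares were 24.4% (22.2 to 26.8%) in microglia and 2.55% (2.25 to 2.86%) in rods. At this depth the C1qa share was 1.6% (1.19 to 2.11%) in cones, 1.07% (0.805 to 1.39%) in Muller glia, 0.859% (0.689 to 1.06%) in BC and 0.544% (0.405 to 0.714%) in AC. No type but microglia had an interval above that of rods, and the source of the UMIs in rods was not tested.

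The level outside microglia was not even across genes and cell types. As a percent of the microglial level, the rod level was 10.4% for C1qa, 9.34% for C1qb and 8.93% for C1qc, but 2.91% for C3ar1 and 2.13% for the 11 microglia markers summed. In AC the same values were 1.67%, 1.78%, 1.66%, 1.47% and 3.55% in turn. In rods the C1q values thus lay above both the C3ar1 value and that of the marker sum, while in AC they lay below the marker sum but above C3ar1. The cause was not tested. Rods held 21.5% of all 3102 C1qa UMIs, while microglia, with 2.98% of the nuclei, held 34.6%. Microglia held 37.0% of C1qb, 38.6% of C1qc and 52.6% of C3ar1 UMIs.

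C3 and C4b, the components cleaved downstream of C1q, were highest in macroglia, C3 in astrocytes and C4b in Muller glia and astrocytes. C3 (ENSMUSG00000024164; chr17:57203970-57228136, minus strand) was at 200.5 ± 65.7 CPM in astrocytes, with every astrocyte library above every library of the next type, Muller glia, at 22.9 ± 7.49 CPM (SD, n = 6 libraries each). Microglia followed with 18.2 ± 10.3 CPM, which overlapped Muller glia. A C3 UMI was found in 39.2% of 278 astrocyte nuclei (95% exact interval 33.4 to 45.2%), 7.16% of Muller nuclei (6.47 to 7.90%), 3.60% of microglial nuclei (2.70 to 4.70%) and 1.49% of rods (1.30 to 1.70%). After thinning to 1000 UMIs, astrocytes kept 14.4% (10.5 to 19.1%). Muller glia were then at 2.17% (1.79 to 2.61%) and microglia at 1.86% (1.22 to 2.71%), with intervals that overlapped. Rods were at 1.13% (0.937 to 1.35%), with an interval that overlapped that of microglia but not that of Muller glia. Astrocytes made up 0.567% of the nuclei and held 13.2% of 1676 C3 UMIs, and Muller glia, with lower levels but more nuclei, held 33.8%.

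C4b (ENSMUSG00000073418; chr17:34728380-34743882, minus strand) was at 169 ± 21.6 CPM in Muller glia and 142 ± 52.3 CPM in astrocytes, and these did not separate, with Muller glia higher in 3 of 6 libraries. Both lay above microglia, at 31.4 ± 5.91 CPM, in every library. Among all cell types the lowest C4b was in RGC, at 2.90 ± 1.07 CPM (SD, n = 6 libraries each). Muller glia, 10.4% of the nuclei, held 72.9% of 5839 C4b UMIs, and 47.0% of Muller nuclei had at least 1 (95% exact interval 45.6 to 48.3%; 15.6% after thinning) against 2.46% of rods (1.76% after thinning). C4b has a close paralog in the mouse, C4a, and reads common to both may have been split or lost in the counting.

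Serping1, which encodes C1 inhibitor, the blocker of C1r and C1s, was highest in Muller glia, astrocytes, pericytes and HC. Serping1 (ENSMUSG00000023224; chr2:84765387-84775444, minus strand) was at 144 ± 27.4 CPM in Muller glia, 122 ± 26.5 CPM in astrocytes, 119 ± 90.8 CPM in pericytes and 60.7 ± 30.9 CPM in HC (SD, n = 6 libraries each). Neighbours in this order overlapped. Microglia were lower, at 16.0 ± 7.74 CPM. The pericyte value rests on 33 UMIs in 107 nuclei and ran from 0 to 239.5 CPM between libraries. HC was the neuron with the highest level, with a UMI in 34.3% of nuclei (95% exact interval 30.1 to 38.8%) at a median depth of 10036.5 UMIs, and 5.65% (3.76 to 8.11%) after thinning against 2.87% (2.56 to 3.21%) in rods. Muller glia held 44.5% of 8061 Serping1 UMIs and BC 18.4%.

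The other regulators, Cfi and Cd59a, were found mainly in neurons. Cfi (ENSMUSG00000058952; chr3:129835884-129875332, plus strand) encodes factor I, the protease that inactivates C3b and C4b, and was low everywhere. Its highest level was in BC, at 14.0 ± 3.21 CPM (SD, n = 6 libraries), and BC held 73.2% of its 988 UMIs. Endothelial cells came next at 7.07 ± 8.46 CPM from 4 UMIs, below BC in 5 of 6 libraries, and a Cfi UMI was found in 0 of 107 pericyte nuclei, which allows a share of up to 2.80%. Cd59a (ENSMUSG00000032679; chr2:104095801-104115354, plus strand), which encodes an inhibitor of the membrane attack complex, was at 71.3 ± 12.8 CPM in cones and 69.4 ± 28.6 CPM in endothelial cells, which did not separate. HC followed at 25.5 ± 7.74 CPM, below both in every library, and then rods at 12.6 ± 2.14 CPM. At 1000 UMIs per nucleus a Cd59a UMI was found in 6.29% of cones (5.46 to 7.20%), 5.19% of endothelial nuclei (2.62 to 9.09%) and 1.20% of rods (0.998 to 1.42%). Cones thus differed from rods at equal depth for Cd59a, whereas their Serping1 shares, 2.02% (1.56 to 2.58%) and 2.87%, had intervals that just overlapped.

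**Figure D2:**
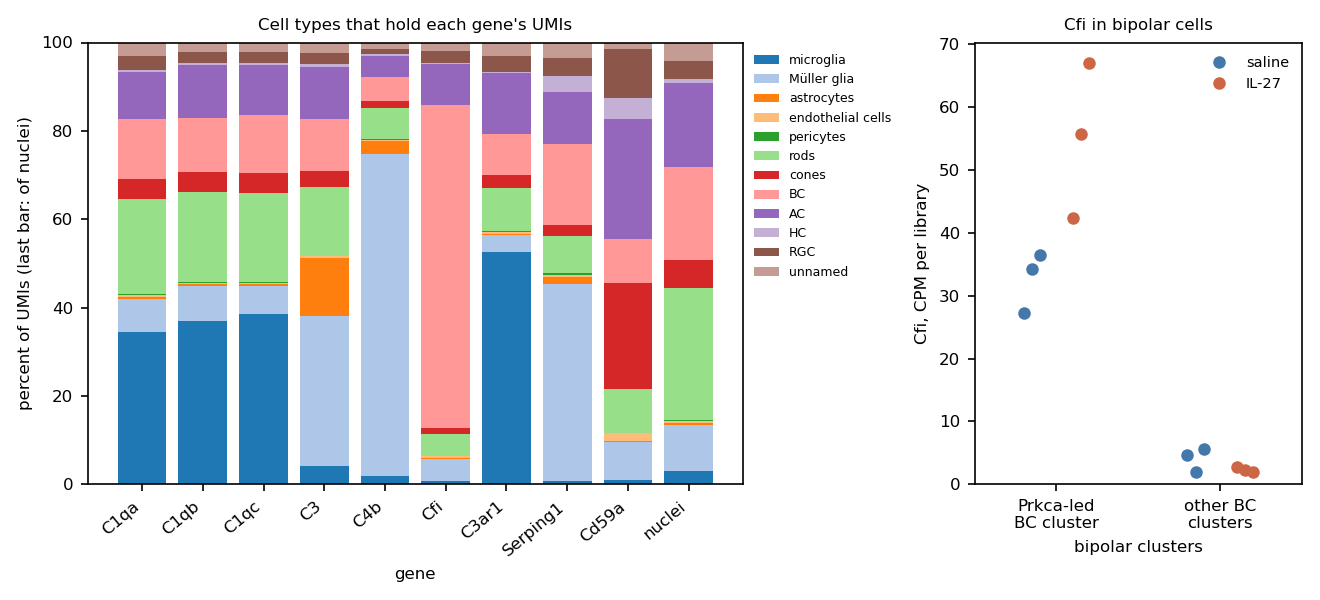
Left, percent of the UMIs of each gene that each cell type holds in all retained nuclei, beside the percent of nuclei (last bar). Right, Cfi in CPM per library in the BC cluster led by Prkca and in the other BC clusters, with saline in blue and IL-27 in red. Microglia hold 34.6 to 52.6% of C1q and C3ar1 UMIs with 2.98% of nuclei, and the Prkca-led cluster holds most of Cfi in BC.

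Within BC, Cfi was concentrated in a single cluster. Of 10 BC clusters, the one led by Prkca, a known marker of rod bipolar cells, and by Trpm1 held 79.8% of 723 Cfi UMIs with 28.9% of BC nuclei. Prkca was at 15777 CPM in it and at 1078 CPM in the other BC clusters. A small cluster that was also high in Prkca had a pooled Cfi level of 30.1 CPM, and the lowest BC cluster was at 0.368 CPM. In the Prkca-led cluster Cfi was at 27.3, 34.2 and 36.5 CPM in the saline libraries and 42.4, 55.7 and 67.0 CPM in the IL-27 libraries. The IL-27 libraries all lay above the saline libraries there. In the other BC clusters it was at 4.71, 1.98 and 5.65 CPM in saline and 2.72, 2.36 and 1.98 CPM in IL-27 libraries, with the groups overlapping. The cluster made up 31.1, 29.2 and 26.2% of BC nuclei in saline and 31.3, 29.6 and 26.5% in IL-27 libraries, so its share did not separate the groups. These per-cluster levels are a description with no test.

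Genes whose mean log2(CPM + 1) over the 11 cell types followed that of a member most closely, among 15168 genes, were as follows. C1qb came closest to Fcer1g (Pearson r = 0.993, across cell types), and C1qa and C1qc to Lyz2 (r = 0.985 and 0.989), genes known from myeloid cells. Next were H2-Eb1 (r = 0.979) and Dhx9 (r = 0.977) for C1qb, and Ifi27l2a and Serp1 (r = 0.984 each) for C1qa. For C1qc they were Ctss (r = 0.986) and Alox5ap (r = 0.984). C3ar1 was closest to Bcl2a1b (r = 0.983), with Mrc1 and Fcgr4 next. C3 was closest to Lcn2 (r = 0.979), Trf (r = 0.965) and Gfap (r = 0.961), of which Lcn2 and Gfap are known from reactive astrocytes. C4b was equally close to Cp, Glul and Pdpn (r = 0.97 each), where Glul is the glutamine synthetase of Muller glia. For Serping1, Cfi and Cd59a the closest genes were Slc41a1 (r = 0.906), 4930440I19Rik (r = 0.931) and Dele1 (r = 0.855). The points share libraries and depth, so these correlations are descriptions.

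The comparison of IL-27 with saline asked whether complement transcription in any cell type differed 2 days after the injection. No member passed the test in any cell type. Of the 54 pairs of a member and a cell type with enough counts to test, 0 were called by edgeR at an adjusted p under 0.05 and 0 by DESeq2, while 8, or 14.8%, had an unadjusted p under 0.05 in edgeR. Over all genes that share was 4402 of 106081 pairs, or 4.15%, and it ran from 2.56% in endothelial cells to 9.25% in Muller glia. The pairs share libraries and the members were not chosen blind to these data, so nothing is read from the difference. The log2FC, IL-27 over saline, was above 0 in 34 pairs and below 0 in 20, with a median of 0.07. The median log2FC of all genes tested lay between -0.01 and 0.02 in the 11 cell types. The members passing the count filter were all 9 in BC and AC, 8 in rods, 7 in Muller glia, 6 in cones, 5 in microglia and RGC, 3 in astrocytes, 2 in HC, and 0 in endothelial cells and pericytes. Over all genes, edgeR called 0% in microglia, astrocytes, endothelial cells, cones, HC and RGC, 0.0214% in Muller glia, 0.00755% in rods, 0.0066% in BC, 0.00611% in AC and 0.568% in pericytes, so few genes of any kind were called.

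**Figure D3:**
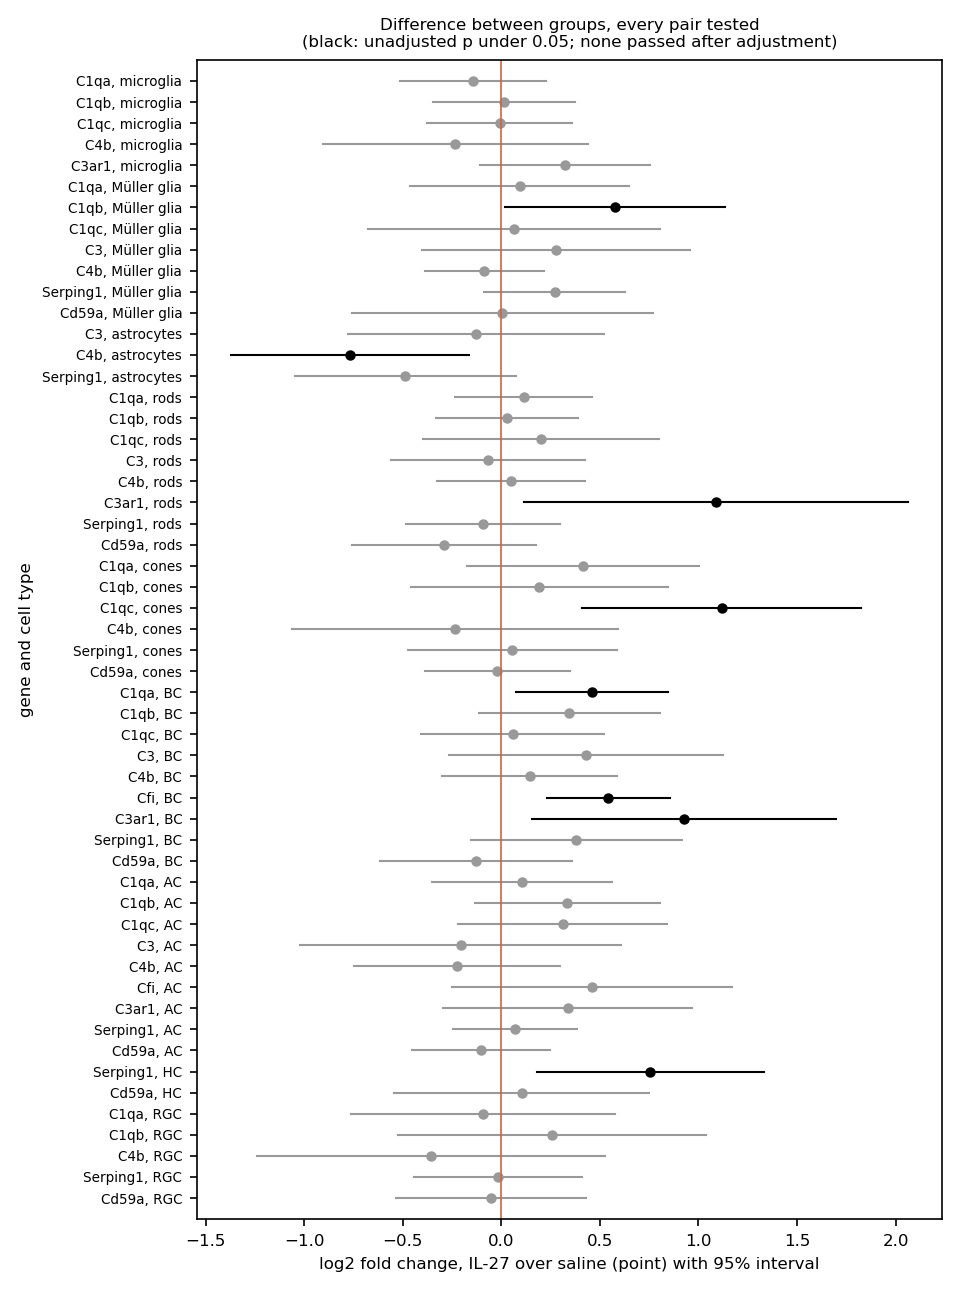
log2FC, IL-27 over saline, with its 95% interval for each of the 54 pairs of a gene and a cell type tested with edgeR (3 against 3 libraries). The 8 pairs in black had an unadjusted p under 0.05, and 0 pairs passed after adjustment over all genes of the cell type.

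In microglia, the C1q genes overlapped between the groups. C1qa was at 283, 343 and 336 CPM in the saline libraries and at 275, 247 and 360.1 CPM in the IL-27 libraries. C1qb was at 319, 308 and 277 CPM in saline and 259.5, 288 and 377 CPM in IL-27 libraries. The highest library of both genes was IL-27 replicate 10 and the lowest was another IL-27 library, so the saline values lay inside the IL-27 range. C1qc was at 284.5, 249 and 305 CPM in saline and 226, 277 and 340.4 CPM in IL-27 libraries, with the same order of the IL-27 libraries as C1qb. The log2FC was -0.14 (SE 0.17, 95% interval -0.51 to 0.22, adjusted p = 0.9997 in edgeR) for C1qa, 0.01 (-0.35 to 0.37) for C1qb and -0.01 (-0.38 to 0.36) for C1qc. A change of 0.5 in log2 in either direction thus lies outside the C1qb and C1qc intervals. Of all genes tested in microglia, 269 of 8295 had an unadjusted p under 0.05, and 0 of the 5 members tested did.

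C3ar1, the receptor, was not called in microglia either. It was at 118, 149 and 173 CPM in saline and at 143, 193 and 214 CPM in IL-27 libraries, so the groups overlapped. The log2FC was 0.32 (SE 0.20, 95% interval -0.11 to 0.75, unadjusted p = 0.133, adjusted p = 0.9997 in edgeR). C4b in microglia was at 32.9, 37.2 and 30.8 CPM in saline and 20.9, 30.1 and 36.6 CPM in IL-27 libraries, with a log2FC of -0.23 (SE 0.32). C3 in microglia rested on 66 UMIs in all, did not pass the count filter and was at 13.2, 24.1 and 7.10 CPM in saline and 12.2, 35.9 and 16.9 CPM in IL-27 libraries.

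The number of microglial nuclei, which moves the retina's total of C1q and C3ar1, did not separate the groups. Microglia were 3.10, 2.46 and 2.29% of retained nuclei in saline and 3.02, 4.97 and 2.02% in IL-27 libraries. IL-27 replicate 5 held the largest share and IL-27 replicate 10 the smallest. The means were 2.62 ± 0.427% and 3.34 ± 1.5% (SD, n = 3 each; two-sided exact permutation test, p = 0.7, where 0.1 is the smallest p possible), and without IL-27 replicate 5 the difference turned from 0.719 to -0.0994 percentage points. Summed over all retained nuclei, C3ar1 was at 3.91 ± 0.150 CPM in saline and 6.15 ± 2.59 CPM in IL-27 libraries and C1qa at 12.7 ± 0.890 and 15.3 ± 2.27 CPM (SD, n = 3 each). The groups overlapped for all 9 members in these sums, in which more microglial nuclei and more RNA per microglial nucleus cannot be told apart. The share of Muller glia, which held 72.9% of C4b UMIs, did separate the groups. Muller glia were 12.5, 12.3 and 10.2% of retained nuclei in saline and 9.22, 9.78 and 8.54% in IL-27 libraries (two-sided exact permutation test, p = 0.1). The larger Muller cluster held 916, 792 and 783 nuclei in saline and 794, 829 and 649 in IL-27 libraries. Its share of retained nuclei overlapped between the groups. The smaller cluster, led by Frmpd4 and with Fbln1, held 227, 221 and 111 nuclei in saline and 12, 7 and 97 in IL-27 libraries. It scored higher for retinal pigmented epithelium (RPE) than for Muller markers.

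In astrocytes, C4b and Serping1 were lower in every IL-27 library than in any saline library, though neither passed the test, and C3 overlapped. C4b was at 184, 211 and 149 CPM in saline (32 to 34 UMIs each) and at 141, 68.7 and 100 CPM in IL-27 libraries (11 to 37 UMIs each). Serping1 was at 138, 155 and 135 CPM in saline and 122, 93.6 and 87.5 CPM in IL-27 libraries. Neither gene overlapped between groups, though the gap was small, and such a gap below saline occurred in 3.62% of all genes tested in astrocytes. The log2FC of C4b was -0.77 (SE 0.29, 95% interval -1.37 to -0.16, unadjusted p = 0.01578, adjusted p = 0.973 in edgeR). That of Serping1 was -0.49 (SE 0.27, 95% interval -1.05 to 0.08, adjusted p = 0.973 in edgeR). C3 was at 184, 273 and 159 CPM in saline and 107, 275 and 206 CPM in IL-27 libraries, with a log2FC of -0.13 (95% interval -0.78 to 0.52). The astrocyte sums came from 34 to 65 nuclei per library, and the 6 astrocyte markers summed to 2483 to 3087 CPM in saline and 2342 to 2662 CPM in IL-27 libraries.

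In Muller glia, C4b and Serping1 overlapped between groups. C4b was at 193, 184 and 148 CPM in saline and 137, 175 and 175 CPM in IL-27 libraries, with a log2FC of -0.09 (SE 0.13, 95% interval -0.39 to 0.21, adjusted p = 0.9169 in edgeR). Serping1 was at 136, 139 and 120 CPM in saline and 115, 179 and 177 CPM in IL-27 libraries, so IL-27 replicate 4 was the lowest of all and the others were the highest. Its log2FC was 0.27 (SE 0.16, 95% interval -0.09 to 0.63, adjusted p = 0.6747 in edgeR). C3 was at 15, 23.5 and 24.4 CPM in saline and 13.2, 31.9 and 29.2 CPM in IL-27 libraries, with a log2FC of 0.28 (SE 0.30, adjusted p = 0.8657 in edgeR). C1qb, which was lower in these cells than in rods, was at 8.38, 7.24 and 7.05 CPM in saline and 11.1, 14.0 and 8.08 CPM in IL-27 libraries, with a log2FC of 0.58 (SE 0.25, unadjusted p = 0.04392, adjusted p = 0.5199 in edgeR). The 11 microglia markers summed to 187 to 208 CPM in saline and 187 to 230.4 CPM in IL-27 Muller glia, and their part in the C1qb values was not tested.

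**Figure D4:**
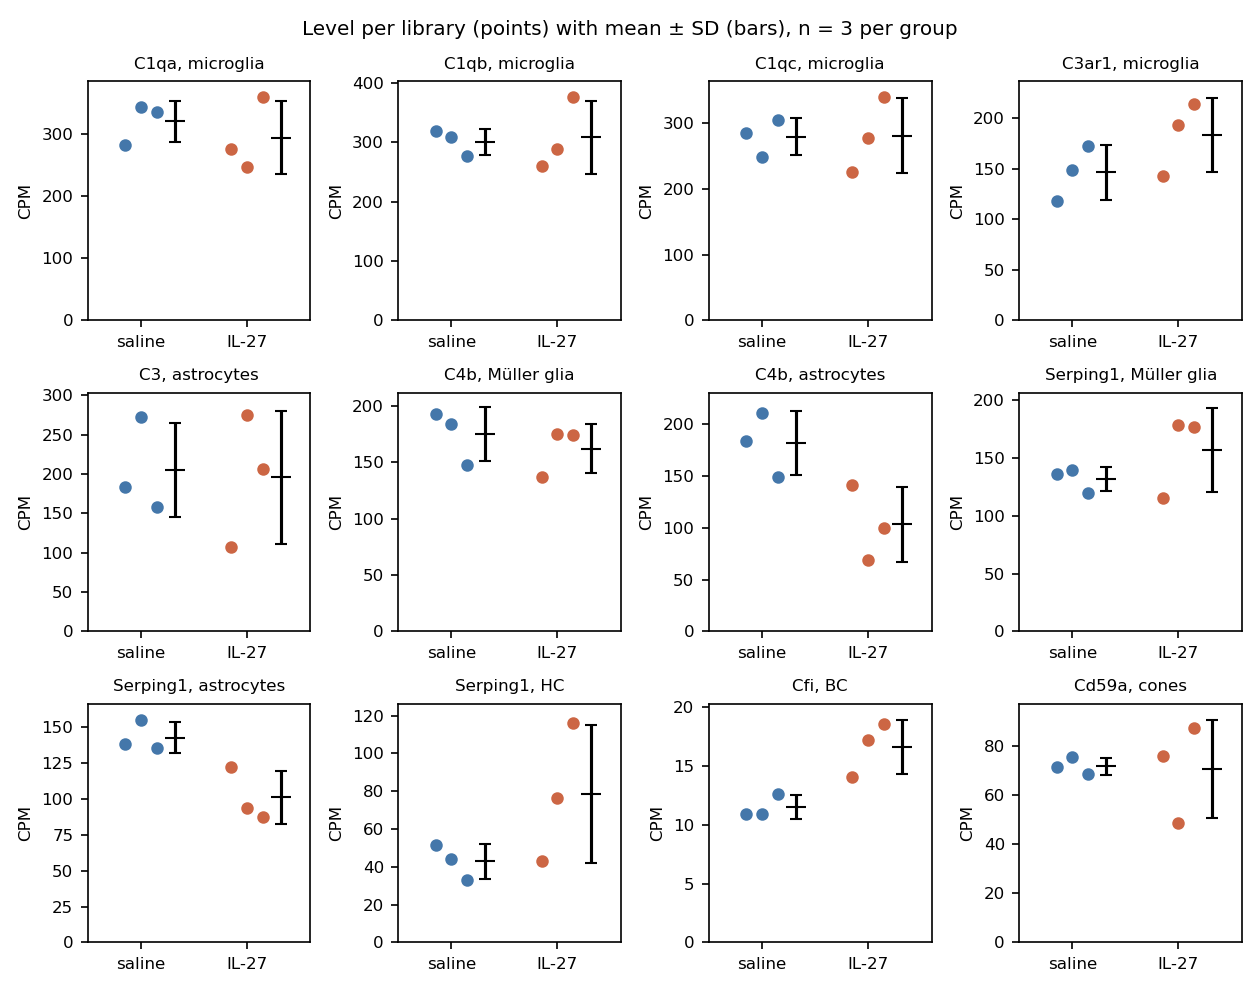
CPM per library in saline (blue) and IL-27 (red) groups for 12 pairs of a gene and a cell type, with mean ± SD (bars, n = 3 each). The groups overlap in microglia and Muller glia, the IL-27 libraries lie below saline for C4b and Serping1 in astrocytes, and they lie above saline for Cfi in BC.

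Among neurons, Cfi in BC had the smallest p of any member. It was at 10.9, 10.9 and 12.6 CPM in saline (79 to 114 UMIs each) and 14.0, 17.2 and 18.5 CPM in IL-27 libraries (94 to 141 UMIs each). Every IL-27 library was above every saline library. The log2FC was 0.54 (SE 0.14, 95% interval 0.23 to 0.85, unadjusted p = 0.002525), but the adjusted p over all genes of BC was 0.9985 in edgeR. C1qa in BC was also higher in each IL-27 library, at 7.84, 7.06 and 6.54 CPM in saline and 8.05, 11 and 9.92 CPM in IL-27 libraries (log2FC 0.46, SE 0.18, adjusted p = 0.9985 in edgeR). Thus 2 of 9 members tested in BC had IL-27 libraries all above saline, against 2.95% of all genes tested there. Cfi in AC was at 1.07, 0.92 and 1.20 CPM in saline and 1.28, 1.23 and 1.94 CPM in IL-27 libraries, the 1 member of 9 with such a gap in AC, against 3.5% of all genes. C3ar1 in BC had a log2FC of 0.93 (SE 0.35, unadjusted p = 0.02246, adjusted p = 0.9985 in edgeR) at 1.11 to 3.79 CPM, with overlapping groups.

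In HC, Serping1 was at 51.5, 44.1 and 33.1 CPM in saline and 42.9, 76.6 and 116 CPM in IL-27 libraries. IL-27 replicate 4 lay within the saline range, and the others lay above it. The log2FC was 0.76 (SE 0.28, 95% interval 0.18 to 1.33, unadjusted p = 0.0126, adjusted p = 0.9123 in edgeR). Without IL-27 replicate 4 it was 1.09 with an adjusted p of 0.06756 in edgeR, the smallest adjusted p of any member under any setting tried. With each library left out in turn it ran from 0.41 to 1.09. Without IL-27 replicate 10, and without saline replicate 6, its unadjusted p in edgeR was not under 0.05. Cd59a in HC had a log2FC of 0.10 (SE 0.31). A list of 30 interferon response genes, which does not include Serping1, summed to 486, 862 and 545 CPM in the saline and 859, 923 and 1515 CPM in the IL-27 libraries of HC. In Muller glia the same list was at 3514, 3551 and 2126 CPM in saline and 2599, 4339 and 4994 CPM in IL-27 libraries. Saline replicate 6 and IL-27 replicate 4 were thus the lowest, and IL-27 replicates 5 and 10 the highest, both for this list and for Serping1 in Muller glia. The same held in BC, where Serping1 was at 24.5, 31.3 and 17.3 CPM in saline and 18.2, 35.8 and 39.1 CPM in IL-27 libraries. The order did not hold in HC, where saline replicate 1 was the lowest for the list but the highest saline library for Serping1, nor in astrocytes, where the list was at 2673, 5492 and 1571 CPM in saline and 1930, 3533 and 4119 CPM in IL-27 libraries while Serping1 was lowest in IL-27 replicates 5 and 10. It was noticed after the values were seen, and the part of interferon response genes in the Serping1 values was not tested.

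In photoreceptors, Cd59a, which was highest in cones, did not separate the groups there. It was at 71.5, 75.4 and 68.5 CPM in saline and 76.1, 48.7 and 87.3 CPM in IL-27 cones, with a log2FC of -0.02 (SE 0.18, 95% interval -0.39 to 0.35). In rods Cd59a was at 13.7, 14.1 and 14.2 CPM in saline and 11.5, 8.70 and 13.3 CPM in IL-27 libraries, the 1 member of 8 with all IL-27 libraries below saline, against 4.36% of all genes tested in rods. Its log2FC was -0.29 (SE 0.22, unadjusted p = 0.2075, adjusted p = 0.9983 in edgeR). The other differences in photoreceptors were at low level, in genes that were highest in microglia. C1qc in cones was at 11.1, 6.72 and 4.67 CPM in saline (6 to 17 UMIs each) and 15.3, 19.9 and 14.6 CPM in IL-27 libraries (18 to 27 UMIs each), with a log2FC of 1.12 (SE 0.34, unadjusted p = 0.003738, adjusted p = 0.9988 in edgeR). It was the 1 of 6 members in cones with all IL-27 libraries above saline, against 4.21% of all genes, while C1qa and C1qb overlapped. C3ar1 in rods was at 3.08, 2.45 and 3.25 CPM in saline and 3.44, 12.0 and 4.60 CPM in IL-27 libraries, with a log2FC of 1.09 (SE 0.46, unadjusted p = 0.03055, adjusted p = 0.9983 in edgeR). Without IL-27 replicate 5 the log2FC was 0.48 (SE 0.41, unadjusted p = 0.257). C3ar1 was 1 of 8 members in rods with all IL-27 libraries above saline, against 4.04% of all genes, and IL-27 replicate 5 also held the largest share of microglia. The 11 microglia markers summed to 76.2 to 81.0 CPM in saline and 85.9 to 92.2 CPM in IL-27 cones. These sums did not overlap and differed in the same direction as C1qc. In rods they summed to 106 to 119.6 CPM in saline and 118.6 to 164 CPM in IL-27 libraries, which overlapped. Within each group of cones, the library with the highest marker sum, saline replicate 6 and IL-27 replicate 10, had the lowest C1qc. In rods, IL-27 replicate 5 was the highest for both the marker sum and C3ar1. These orders rest on 3 libraries per group, and the part of the microglia markers in the C1qc and C3ar1 values was not tested.

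In endothelial cells and pericytes no member had enough counts for the test. Cd59a in endothelial cells was at 53.8, 50.9 and 82.9 CPM in saline and 56.3, 50.1 and 122 CPM in IL-27 libraries, which overlapped. Serping1 in endothelial cells was at 21.5, 12.7 and 18.4 CPM in saline (1 to 2 UMIs each) and 33.8, 28.6 and 50.9 CPM in IL-27 libraries (3 to 5 UMIs each). In pericytes Serping1 was at 204, 56.2 and 0 CPM in saline and 129, 239.5 and 84.2 CPM in IL-27 libraries. With so few UMIs neither value carries a comparison.

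Microglia were clustered again, with the complement genes left out of the clustering, to describe how the members varied among them. The main subclusters were 418 nuclei led by Plxdc2 and Slco2b1, 405 nuclei led by Klra2 and Ccr2, and 369 nuclei led by Gpnmb and Lyz2. The sum of the C1q chains was at 1014 CPM in the Plxdc2 nuclei, 1216 CPM in the Ccr2 nuclei and 824 CPM in the Gpnmb nuclei, pooled over libraries. It ran from 822 to 1355 CPM between libraries in the Plxdc2 nuclei, from 1038 to 1568 CPM in the Ccr2 nuclei and from 548 to 961 CPM in the Gpnmb nuclei, so every library of the Ccr2 nuclei lay above every library of the Gpnmb nuclei. C3ar1 was at 137 CPM in the Plxdc2 nuclei, 268 CPM in the Ccr2 nuclei and 195 CPM in the Gpnmb nuclei. C4b was at 47.5 CPM (55 UMIs) in the Plxdc2 nuclei and 25.4 and 24.1 CPM (20 and 18 UMIs) in the Ccr2 and Gpnmb nuclei, with libraries that overlapped. C3 was at 6.04 CPM (7 UMIs) in the Plxdc2 nuclei and 35.6 and 30.8 CPM (28 and 23 UMIs) in the Ccr2 and Gpnmb nuclei. The macrophage markers, 7 of 7 detected, summed to 1127 CPM in the Ccr2 nuclei and to 57.8 CPM in the Plxdc2 nuclei. The 11 microglia markers summed to 6172 CPM in the Ccr2 nuclei and 7886 CPM in the Plxdc2 nuclei. The Ccr2 nuclei count toward all microglial levels given here, and whether they are macrophages was not tested. A cycling group of 59 nuclei led by Top2a was at 765 CPM of C1q. By contrast, 109 nuclei led by Zfp366 and H2-Eb1, a class II antigen presentation gene, were at 35.3 CPM of C1q and 19.6 CPM of C3ar1.

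The microglial class also held 98 nuclei led by Skap1 and Lck, known T cell genes, with 5 of 5 T cell markers detected at a sum of 3754 CPM, 55.1 CPM of C1q and 0 UMIs of C3ar1. Their share of microglia was 13, 0.985 and 2.50% in saline and 1.89, 9.88 and 3.98% in IL-27 libraries, uneven within both groups. With these nuclei, the H2-Eb1 nuclei and other small subclusters left out, the log2FC in microglia was -0.14 for C1qa, 0.02 for C1qb, -0.01 for C1qc and 0.32 for C3ar1, and 0 members were called by edgeR. The differences in microglia were thus as large without them. A further 42 nuclei of the class carried rod markers at 5145 CPM and were kept.

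**Figure D5:**
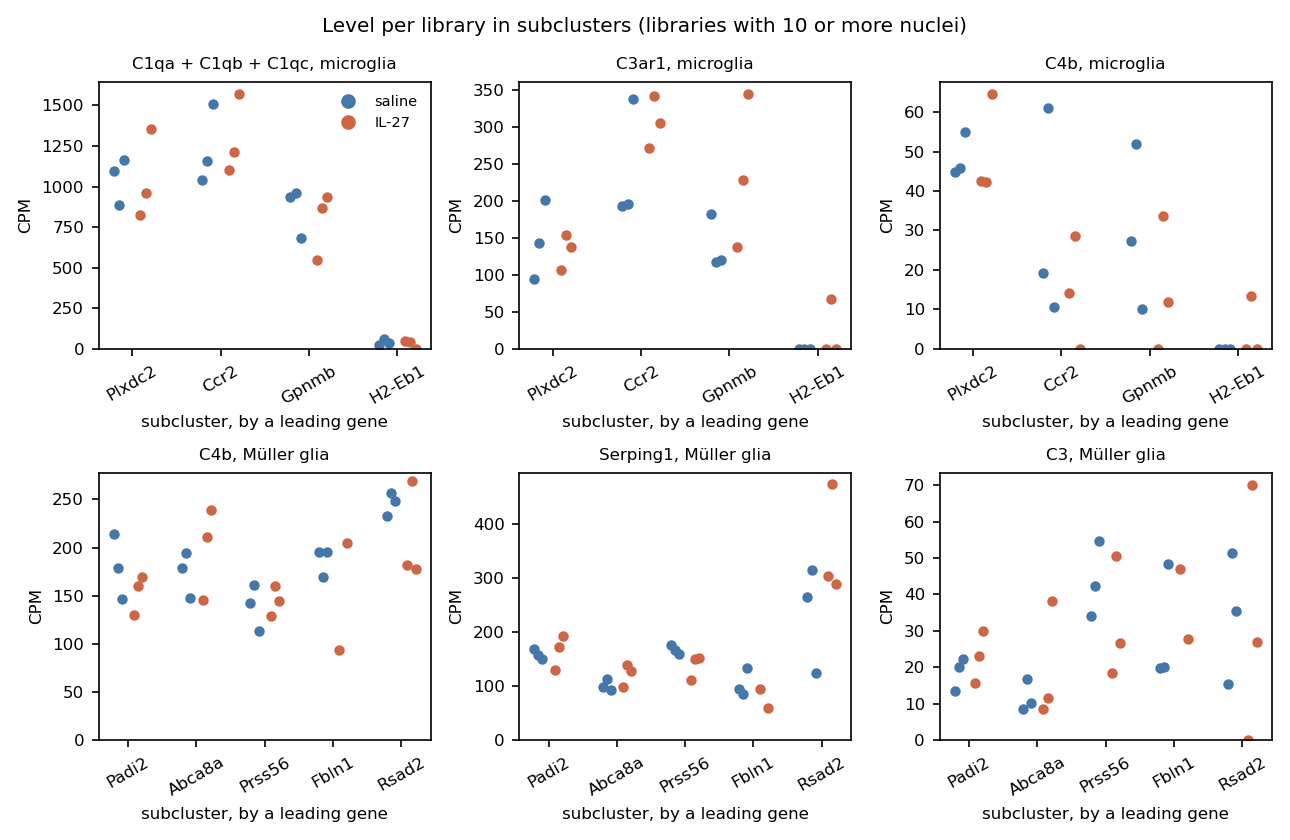
CPM per library of the C1q chains summed, C3ar1 and C4b in the main microglial subclusters (top) and of C4b, Serping1 and C3 in Muller subclusters (bottom), in saline (blue) and IL-27 (red) libraries with at least 10 nuclei. The H2-Eb1 subcluster is near 0 for the C1q sum, and the Rsad2 subcluster of Muller glia is the highest in pooled Serping1.

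Muller glia were treated in the same way. C4b was at 142 to 185 CPM, pooled over libraries, in the subclusters led by Padi2, Abca8a, Prss56 and Fbln1. Serping1 was at 165 CPM in the 1990 Padi2 nuclei, 150.5 CPM in the 989 Prss56 nuclei, 105 CPM in the 1559 Abca8a nuclei and 94.8 CPM in the 635 Fbln1 nuclei. In 185 nuclei led by Rsad2 and Cxcl10, both interferon response genes, Serping1 was at 305 CPM and C4b at 227 CPM. There Serping1 ran from 124 to 473 CPM between libraries, against 129.9 to 193 CPM in the Padi2 nuclei. A further 80 nuclei, led by Col8a1 and Dct, were at 96.1 CPM of C4b (25 UMIs), 49.99 CPM of Serping1 (13 UMIs) and 42.3 CPM of C3 (11 UMIs). Dct is among the markers used here for RPE, and whether these 80 nuclei are Muller glia was not tested. C3 was at 11.9 CPM in the Abca8a nuclei, 21.0 CPM in the Padi2 nuclei, and 31.9 to 36.2 CPM in the Fbln1, Prss56 and Rsad2 nuclei. The Prss56 nuclei were 14.8, 15.4 and 14.4% of Muller glia in saline and 26.9, 17.8 and 22.7% in IL-27 libraries (two-sided exact permutation test, p = 0.1). The Fbln1 nuclei were 19.2, 21.4 and 10.9% of Muller glia in saline and 1.61, 0.718 and 11% in IL-27 libraries (two-sided exact permutation test, p = 0.2). The Prss56 and Fbln1 shares are of the same total, so they depend on each other. With the Fbln1 nuclei left out of that total, the Prss56 shares of the groups overlapped. Without the Fbln1 nuclei the log2FC was 0.21 for Serping1, -0.11 for C4b, 0.24 for C3 and 0.56 for C1qb, each close to its value in all Muller glia.

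The wider complement system was taken from a list of 51 further genes, of which 50 were in the files. In 120 pairs of a gene and a cell type with enough counts, 0 were called by edgeR, while at an unadjusted p under 0.05 there were 6 higher and 6 lower in IL-27 libraries, together 10.0% of the pairs against 4.15% of all genes. Of these 12 pairs, 11 were regulators. The 14 initiators of the classical and lectin arms gave 18 pairs, the 3 alternative pathway genes 11, the 7 terminal genes 1, the 8 receptors 10 and the 18 regulators 80. Among the genes with the highest level in microglia were Itgam, a chain of complement receptor 3, at 320.0 ± 30.5 CPM, and Clu, encoding clusterin, at 123 ± 25.1 CPM (SD, n = 6 libraries each). Clu also led in Muller glia, at 463 ± 72.4 CPM, and in astrocytes, at 338 ± 30.5 CPM. Csmd1 was at 164 ± 105 CPM and Cr1l at 58.0 ± 24.9 CPM in astrocytes. In endothelial cells Cd93 was at 301 ± 76.9 CPM and Cr1l at 134 ± 42.8 CPM, and in pericytes Vtn was at 584 ± 97.3 CPM and C7 at 181 ± 101 CPM.

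Csmd3, a membrane protein with complement control domains, was at 286 CPM in saline and 60.2 CPM in IL-27 Muller glia (group means), with no overlap. Its log2FC was -2.25 (SE 0.51, unadjusted p = 0.001536, adjusted p = 0.1894 in edgeR), and it passed without the filter on low counts (adjusted p = 0.0001042 in edgeR) and without IL-27 replicate 10 (adjusted p = 9.682e-05). Without the Fbln1 nuclei, which were few in IL-27 replicates 4 and 5, the log2FC of Csmd3 was -0.10 (SE 0.19, adjusted p = 0.9937 in edgeR). IL-27 libraries all below saline occurred in 8.36% of all genes tested in Muller glia. Csmd1 in Muller glia had a log2FC of -0.79 (SE 0.33, adjusted p = 0.4976 in edgeR). In microglia the groups overlapped, with a log2FC of 0.01 for Itgam and -0.20 for Clu.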

How the data were processed

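Nuclei isolated from flash-frozen rd10 retinas were sequenced as 10x libraries. The deposited values are UMI counts per gene and barcode, which the authors made with Cell Ranger (9.0.1 in the submitters' processing notes, 8.0.1 in the file headers) without normalization; the genome build is not given in the sources used here, and whether introns were counted or strand was used is not stated. The authors then annotated nuclei with Seurat (5.2.1 in the same notes), DoubletFinder, Harmony and an atlas, and tested sums with DESeq2.

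Here, a barcode was kept if it had over 500 UMIs, 200 genes or more and a mitochondrial share below 5%. Scrublet scores (scanpy 1.11.5), taken library by library at an expected rate of 8% less the homotypic share, marked doublets for removal, and nuclei were clustered by the Louvain method (2000 variable genes without complement genes, 25 components, 20 neighbours, resolution 0.25, seed 20, no integration). A cluster was named where at least 3 markers of a type were found in 10% of its nuclei and stood above the mean of clusters with a margin over any other type that met the same marker minimum; in 3 of 32 named clusters another type had the higher mean score but too few markers found, T cells for the microglia cluster, fibroblasts for an AC cluster and RPE for the Muller cluster with Fbln1. This is the third naming rule tried, and it was set after the clusters were seen. A further 2128 nuclei matched no type. Counts were summed per library and type, leaving out nuclei whose log2 total lay beyond 2 median absolute deviations, and tested with edgeR 4.0.16 (quasi-likelihood, TMM, filterByExpr at 10 counts, R 4.3.3) with Benjamini-Hochberg adjustment over all genes of a type at 0.05. The SE is the log2FC divided by the square root of F. Total counts were 36678332 to 48260748 per library, and depth per gene is given as UMIs. Levels by type have no test.

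Members, lists and markers were chosen with earlier results of these data known. Every member is described; further complement genes are named where called or among the 3 highest in glia and vessels, and likeness takes the 3 genes with the highest Pearson r. One of the further complement genes is not reported here. Alternatives were DESeq2 1.42.0, its size factors, other count filters, all nuclei, no doublet removal, resolution 0.5, Muller glia without the Fbln1 cluster, and each library left out. Microglia without T cell-like and other subclusters, and Muller glia also without a cluster with Rpe65, were added after the data were seen. The fit was tested on simulated counts in which 200 genes were changed by 1.5 in log2. It recovered 165 of them in microglia, 179 in Muller glia, 148 in astrocytes and 185 in BC, with 14 or 15 false calls each. Smaller changes, such as those of the members here, were not simulated. Positions come from GENCODE M21 (GRCm38) by gene ID, and all 9 members matched; promoters come from RefSeq and 5 of 9 members matched, with C1qa, C4b, Cfi and Serping1 without an entry.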

Additional observations from a re-analysis of the deposited data

How the results depend on the processing

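Over all alternatives, 711 refits of the 54 pairs of a complement gene and a cell type gave 0 calls by edgeR or DESeq2, the smallest adjusted p being 0.06756 for Serping1 in HC without IL-27 replicate 4. The sign of the log2FC was kept in 663 refits and turned in 48, spread over 27 pairs, with unadjusted p from 0.1387 to 0.9947. With each library left out in turn, the log2FC ran from -0.0097 to 0.25 for C1qa in rods, -0.0574 to 0.51 for C1qb in cones, -0.12 to 0.11 for C1qb in microglia, -0.11 to 0.15 for C1qb in rods, -0.13 to 0.12 for C1qc in microglia, -0.21 to 0.48 for C1qc in rods, -0.43 to 0.22 for C3 in astrocytes, -0.19 to 0.0111 for C4b in Muller glia, -0.10 to 0.36 for Cd59a in HC and -0.16 to 0.17 for Cd59a in cones. That of Serping1 in HC kept its sign and ran from 0.41 to 1.09. The difference in microglial share ran from -0.0994 (without IL-27 replicate 5) to 1.38 percentage points. The log2FC of C1qc in microglia was 0.0595 with all nuclei summed, 0.0606 without removal of doublets and 0.0018 without the filter on low counts, and that of Cd59a in cones was 0.10 with all nuclei summed. The cause was not tested.

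The number of all genes called moved more, from 0 to 455 in Muller glia (3 as reported, 94 with DESeq2, 282 without the count filter and 455 without IL-27 replicate 10), 0 to 9 in microglia and cones, 0 to 28 in astrocytes, 0 to 20 in endothelial cells, 0 to 13 in pericytes, 1 to 25 in rods, 0 to 44 in BC, 0 to 6 in AC, 0 to 32 in HC and 0 to 23 in RGC. Outside Muller glia the highest count was without the filter on low counts. No paired analysis was possible because the groups share no replicate number. Depth limits the astrocyte, endothelial and pericyte values most, where a member rests on few UMIs per library.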
